A study of Mus musculus with 17 samples.

Results

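The genes of cholesterol synthesis, uptake and efflux were followed in livers of male mice that lacked or carried the aryl hydrocarbon receptor (AHR, encoded by Ahr) and were given TCDD, a dioxin that binds this receptor, or corn oil. The list held 33 genes named by symbol, and 30 of them, read by 61 probe sets, were measured among the 18193 genes and 45037 probe sets of the array. Acat2, Nr1h2 and Soat2 were not analysed here. A gene was taken from the probe sets that the array annotation assigns to it alone, and where it had several, as 17 of the 30 did, the one with the highest mean over the 17 arrays stood for it.

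The 4 groups were Ahr-/- mice given TCDD (3 arrays), Ahr-/- mice given corn oil (3 arrays), wild type Ahr+/+ mice given TCDD (6 arrays) and wild type Ahr+/+ mice given corn oil (5 arrays), called KO and WT below. The dose of TCDD was 1000 µg/kg, given once by gavage in corn oil, and all livers were taken 19 h later. The KO mice, in a C57BL/6J background, were 10 weeks of age and purchased, whereas the C57BL/6J WT mice were 15 weeks of age and bred at an institute in Finland, so genotype cannot be told apart from age and source. The labels number the samples of a group and do not say that each came from its own mouse. The p-values therefore rest on the spread between numbered samples, part of which may be technical. Values are log2 expression values, on which a difference of 1 is a doubling, and they measure RNA in whole liver, where fewer cells of a type and less RNA per cell cannot be told apart.

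Liver cells make cholesterol from acetyl-CoA in a first series of steps that ends in farnesyl diphosphate (the mevalonate arm) and a second that runs through squalene and lanosterol (the sterol arm). When membranes of the endoplasmic reticulum hold little sterol, SCAP escorts the transcription factor SREBP2 to the Golgi, where it is cut and released to switch on the genes of synthesis and uptake. INSIG proteins hold SCAP back when sterols are plentiful. Excess cholesterol is sensed, as oxysterols, by the LXR receptors, which switch on the exporters ABCA1, for transfer to apolipoprotein A-I, and ABCG5 with ABCG8, for secretion into bile.

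Checks over the whole array set these limits. Ahr RNA ranged from 9.29 to 9.70 in KO livers and from 9.44 to 10.42 in WT livers on its brighter probe set, so its level did not separate the genotypes, and the sources used here do not say whether that probe set lies in the deleted part. Cyp1a1, a classical target of the receptor, stood at 5.32 and 5.34 in KO TCDD replicates 2 and 3, at 5.81 to 7.18 in KO corn oil, at 15.08 to 15.25 in WT TCDD and at 4.98 to 6.95 in WT corn oil. The library labelled KO TCDD replicate 1 had 12.64, which goes against the other 2 of its group. WT TCDD replicate 6 stood apart in RNA quality, with a 3′ to 5′ probe set gap for Gapdh of 1.98 against -0.165 to -0.0112 on the other 16 arrays. The 7 hepatocyte markers were measured on every array, with array means from 14.58 to 15.12. Levels of different probe sets are not set against each other. The marker lists are read only as RNA differences between groups, which do not tell fewer cells from less RNA per cell. The 30 members averaged between 6.52 and 13.26, all above the array medians of 3.08 to 3.19.

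In WT livers TCDD lowered 3 of the 30 members and raised 1. Insig2, which encodes one of the pair of INSIG proteins that hold SCAP back, fell 1.76-fold. Sc5d, the desaturase of a late step of the sterol arm, fell 1.41-fold, and Scarb1, the receptor that takes up cholesteryl ester from high density lipoprotein, fell 1.34-fold. Lcat, the secreted enzyme that esterifies cholesterol in plasma lipoproteins, rose 1.26-fold. Over all genes 6.32% passed the same test (limma, Benjamini-Hochberg adjusted p under 0.05), against 4 of 30 here. The shares over all genes, here and below, take in many genes dimmer than any member and were not matched for level. The members were also chosen with earlier results of these data known. A higher share among the members is therefore not read as an enrichment.

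To show the DNA just upstream of the genes that changed, the windows from 250 bases before to 50 bases after each annotated start site are printed, as RefSeq gives them on GRCm38.p6, for 3 of the 4 genes. All lie on the minus strand and are written 5′ to 3′ as transcribed. Capitals mark matches, on either strand, to GCGTG, the core of the element that AHR binds, or to CACNCCA, the central part of a sterol response element. Insig2 has 3 start sites, at chr1:121332540-121332839, chr1:121327975-121328274 and chr1:121327629-121327928, Sc5d has 1 at chr9:42264251-42264550, and Lcat has 1 at chr8:105943353-105943652.
Insig2, start site 1: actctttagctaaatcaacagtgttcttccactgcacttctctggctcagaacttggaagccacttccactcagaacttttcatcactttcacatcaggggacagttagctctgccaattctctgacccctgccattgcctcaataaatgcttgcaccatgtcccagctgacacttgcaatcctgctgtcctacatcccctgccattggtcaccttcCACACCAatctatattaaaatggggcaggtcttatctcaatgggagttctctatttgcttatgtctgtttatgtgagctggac
Insig2, start site 2: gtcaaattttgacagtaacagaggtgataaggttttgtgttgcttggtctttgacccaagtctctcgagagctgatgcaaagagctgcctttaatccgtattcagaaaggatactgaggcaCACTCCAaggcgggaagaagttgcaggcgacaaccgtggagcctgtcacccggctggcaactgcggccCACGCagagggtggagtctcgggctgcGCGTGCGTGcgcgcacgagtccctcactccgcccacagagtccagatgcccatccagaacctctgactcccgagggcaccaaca
Insig2, start site 3: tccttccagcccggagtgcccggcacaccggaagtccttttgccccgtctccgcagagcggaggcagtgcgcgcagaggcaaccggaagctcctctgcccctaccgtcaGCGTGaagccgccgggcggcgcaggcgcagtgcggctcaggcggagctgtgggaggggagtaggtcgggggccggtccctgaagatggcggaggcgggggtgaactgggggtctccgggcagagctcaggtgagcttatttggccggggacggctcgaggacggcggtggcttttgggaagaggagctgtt
Sc5d: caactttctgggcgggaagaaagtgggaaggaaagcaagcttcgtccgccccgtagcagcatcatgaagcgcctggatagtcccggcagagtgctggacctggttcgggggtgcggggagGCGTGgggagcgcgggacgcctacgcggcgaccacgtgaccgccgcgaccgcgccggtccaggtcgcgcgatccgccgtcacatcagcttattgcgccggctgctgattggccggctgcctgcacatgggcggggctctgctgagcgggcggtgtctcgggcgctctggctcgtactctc
Lcat: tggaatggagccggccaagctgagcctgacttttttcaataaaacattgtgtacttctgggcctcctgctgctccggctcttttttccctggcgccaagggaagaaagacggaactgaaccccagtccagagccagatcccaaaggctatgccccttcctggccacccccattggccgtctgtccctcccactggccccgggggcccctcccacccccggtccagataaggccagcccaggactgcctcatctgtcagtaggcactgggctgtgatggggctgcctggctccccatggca
The second Insig2 window held 3 matches to the AHR core, 2 of which share a base, and 1 to the sterol element part. The first held 1 match to the sterol element part, the third held 1 to the AHR core, and so did the Sc5d window. The Lcat window held neither set of letters. Of 32851 promoter windows of the same length, 32.4% held GCGTG and 18.4% held CACNCCA, so such matches are common and describe letters, not binding. The values below do not say which Insig2 start site was used.

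Insig2 had 11.56, 11.57 and 11.04 in KO TCDD and 11.29, 11.05 and 11.18 in KO corn oil. In WT TCDD it ran from 10.59 through a median of 10.82 to 11.27, against 11.52, 11.85, 11.81, 11.52 and 11.57 in WT corn oil. All 6 WT TCDD arrays lay below all 5 WT corn oil arrays, and the highest of them was replicate 6, the array with the Gapdh gap. The difference in WT was -0.81 ± 0.13 (log2, SE of the model, adjusted p = 0.00154 by limma), and the other 2 Insig2 probe sets gave -0.90 and -0.93, with adjusted p of 0.000965 and 0.00125. Without both arrays that stood apart it was -0.90 (adjusted p = 0.000505). In KO the difference was 0.22 ± 0.17 (adjusted p = 0.875 by limma), and the KO TCDD and KO corn oil arrays overlapped on this probe set. The other 2 probe sets gave 0.37 ± 0.18 and 0.29 ± 0.19 in KO, each with an adjusted p of 0.875. On the first of these all KO TCDD arrays lay above all KO corn oil arrays, and on the second they overlapped.

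The other sterol-sensing genes did not pass the test in any comparison. Insig1, the INSIG gene that is itself switched on by SREBP2, had 11.99, 12.04 and 12.24 in KO TCDD and 12.35, 11.80 and 12.63 in KO corn oil. It ran from 11.25 through 11.50 to 11.76 in WT TCDD, against 11.90, 11.53, 11.70, 12.33 and 12.16 in WT corn oil. The WT groups overlapped, and the WT difference was -0.44 ± 0.16 (adjusted p = 0.22). Srebf2, which encodes SREBP2, had 8.24, 7.66 and 8.16 in KO TCDD, 8.18, 7.97 and 7.82 in KO corn oil, 6.29 to 8.27 with a median of 7.92 in WT TCDD, and 7.17, 7.84, 8.10, 7.80 and 8.09 in WT corn oil. All groups overlapped, and the lowest value, 6.29, was that of WT TCDD replicate 6, the array with the Gapdh gap. The WT difference was -0.16 ± 0.31 (adjusted p = 0.895), and the second Srebf2 probe set gave 0.02 ± 0.11. Scap, the escort of SREBP2, differed by -0.17 ± 0.08 in WT.

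**Figure D1:**
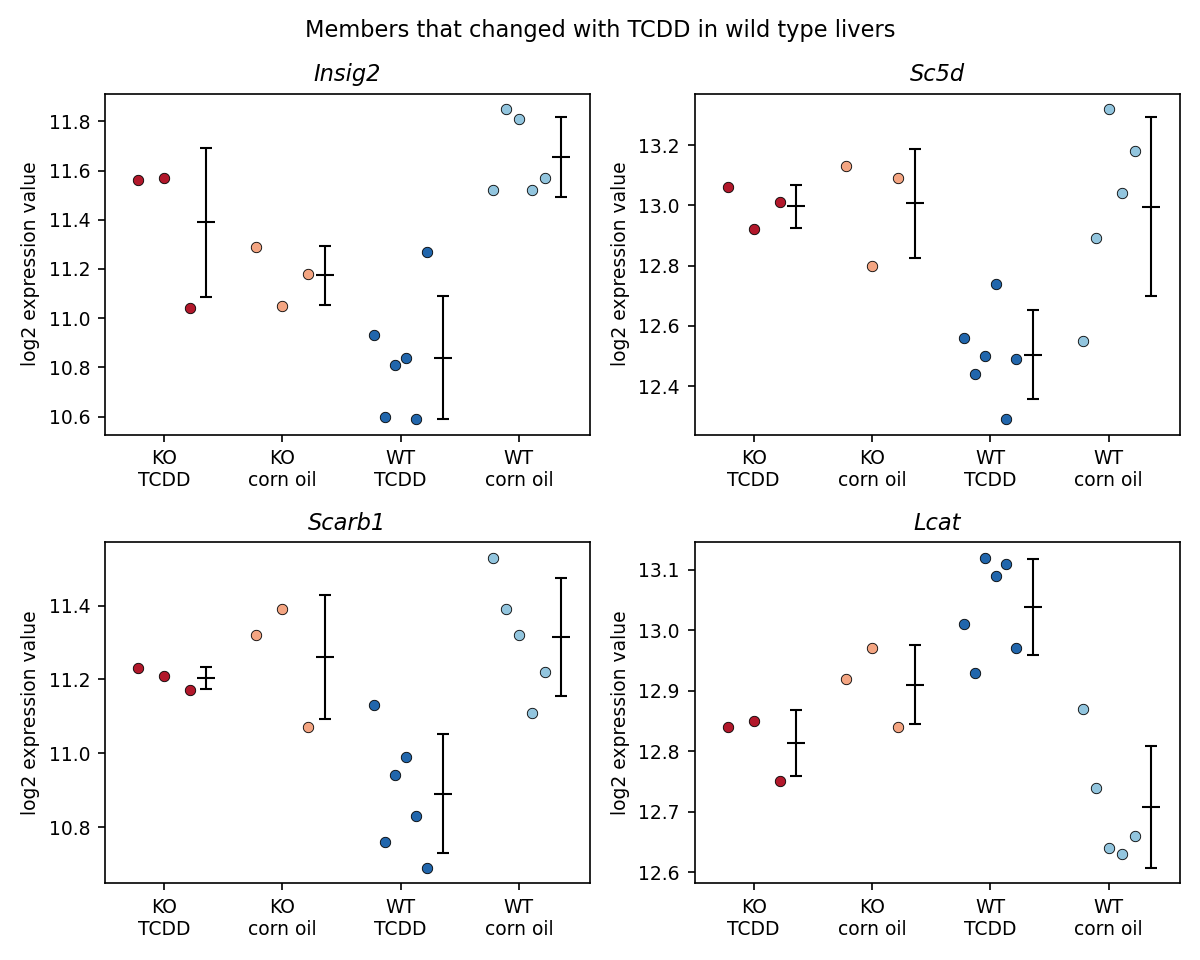
Log2 expression values (vertical axes, each with its own range) of the 4 members that changed with TCDD in WT livers, by group. Each point is 1 array, and the bar beside each group is its mean ± SD. WT TCDD and WT corn oil arrays do not overlap for Insig2 and Lcat and overlap for Sc5d and Scarb1, while KO TCDD and KO corn oil arrays overlap for all 4.

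The synthesis enzymes as a group did not move one way with TCDD in WT livers. Of the 17 measured, 12 had positive and 5 negative differences, with a median of 0.05, and Sc5d alone passed the test. The 6 enzymes of the mevalonate arm ranged from -0.29 for Fdps, the farnesyl diphosphate synthase, to 1.28 for Mvk, the mevalonate kinase, and none passed. The 11 of the sterol arm ranged from -0.49 for Sc5d to 0.76 for Sqle.

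Sc5d had 13.06, 12.92 and 13.01 in KO TCDD and 13.13, 12.80 and 13.09 in KO corn oil. In WT TCDD it ran from 12.29 through 12.50 to 12.74, against 12.55, 12.89, 13.32, 13.04 and 13.18 in WT corn oil. Of the WT corn oil arrays, replicate 1 alone lay within the range of WT TCDD. The WT difference was -0.49 ± 0.12 (adjusted p = 0.0279 by limma), and it was larger on the other 2 probe sets, at -0.85 (adjusted p = 0.00757) and -1.23 (adjusted p = 0.00154). The KO difference was -0.01 ± 0.16. The call on the brightest probe set was not stable. It was lost when any of 7 of the 17 arrays was left out (WT TCDD replicates 2, 3, 5 and 6, WT corn oil replicates 3, 4 and 5). The differences ran from -0.60 to -0.41 over all 17 omissions. The call was also lost with scan day as a block (-0.45, adjusted p = 0.0576 by limma).

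Tm7sf2, a reductase that acts on the sterol ring before Sc5d, had 11.36, 11.52 and 11.36 in KO TCDD, 11.25, 11.21 and 11.52 in KO corn oil, 10.87 to 11.08 with a median of 11.03 in WT TCDD, and 11.49, 11.28, 11.42, 11.12 and 11.14 in WT corn oil. All WT TCDD arrays lay below all WT corn oil arrays, yet the difference of -0.28 ± 0.08 stood just outside the threshold (adjusted p = 0.0536). The call of Tm7sf2 depended on the setting. It passed with median centring, a filter on level and the median of each gene's probe sets. It also passed without KO corn oil replicate 3 or WT corn oil replicate 4 or 5. Ebp, the sterol isomerase, differed by -0.23 ± 0.08 (adjusted p = 0.158). Members whose WT TCDD and WT corn oil arrays did not overlap numbered 3 of 30, namely Insig2, Tm7sf2 and Lcat, against 5.86% of all genes.

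Several other enzymes, from both arms, had positive WT differences that did not pass the test. Sqle, the squalene epoxidase that is a rate-limiting step of the sterol arm, had 10.62, 9.66 and 10.60 in KO TCDD and 10.63, 10.25 and 10.36 in KO corn oil. It ran from 9.68 through 10.25 to 10.73 in WT TCDD, against 8.83, 8.56, 9.71, 10.08 and 10.17 in WT corn oil. The WT groups overlapped, with WT corn oil replicates 1 and 2 well below the rest, and the difference was 0.76 ± 0.32 (adjusted p = 0.342). Mvk differed by 1.28 ± 0.34, the largest difference of the 30 members, with an adjusted p of 0.0507, just outside the threshold. Its arrays ran from 7.37 to 8.65 in WT TCDD and from 5.33 to 7.55 in WT corn oil, where replicates 1 and 2 were lowest. Those 2 arrays had 6.16 and 5.33, and the next lowest had 7.10. The second Mvk probe set gave 0.56 (adjusted p = 0.174). The call of Mvk depended on the setting: it passed with quantile normalization, array weights, a mean-variance trend, a filter on level, the median of its probe sets, and without WT corn oil replicate 3 or 4 or WT TCDD replicate 5. Msmo1, the methylsterol oxidase, differed by 0.61 ± 0.26 (adjusted p = 0.324). Hmgcs1, the synthase of HMG-CoA in the cytosol, differed by 0.05 ± 0.21, Lss, which closes lanosterol, by 0.00 ± 0.22, and Cyp51, the lanosterol demethylase, by 0.01 ± 0.13. The other 7 enzymes differed by -0.14 (Mvd, the decarboxylase that makes isopentenyl diphosphate) to 0.42 (Fdft1, the squalene synthase). Between them stood Pmvk, the second kinase of the mevalonate arm, at 0.03, Nsdhl and Hsd17b7, which act on sterol rings, at 0.12 and 0.34, Dhcr7, the reductase of a last step, at 0.22, and Idi1, the isomerase of isopentenyl diphosphate, at 0.37.

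**Figure D2:**
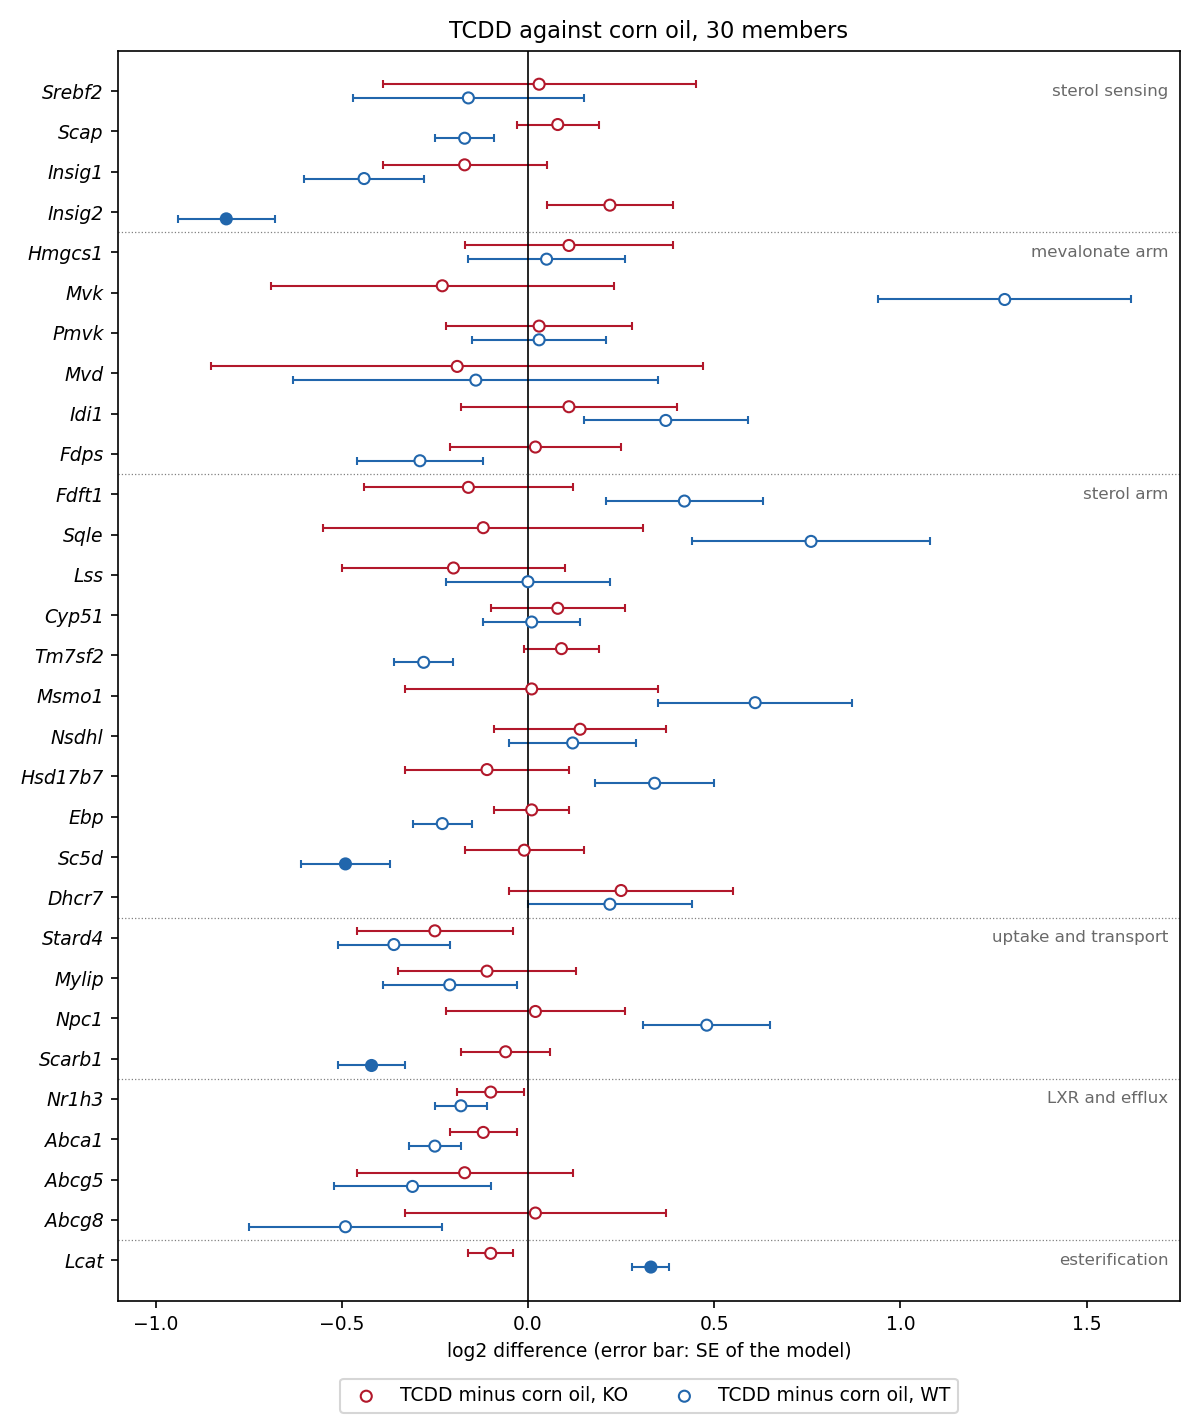
Difference between TCDD and corn oil on the log2 scale (horizontal axis, error bars are SE of the model) for each of the 30 members, in role order down the page, with KO above WT for each gene. Filled points passed the test. In WT, Insig2, Sc5d, Scarb1 and Lcat are filled, and in KO none is.

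Synthesis enzymes were high or low together on the arrays of a group, a pattern described here after the values were seen. Averaged over the 17 enzymes and expressed as the deviation from each enzyme's mean over the 17 arrays, WT corn oil replicates 1 and 2 stood at -0.48 and -0.64, whereas replicates 3, 4 and 5 stood at 0.18, 0.13 and 0.06. WT corn oil replicates 1 and 2 were the lowest 2 of their group for 12 of the 17 enzymes, against 5 of the 13 other members. In WT TCDD, replicate 5 stood at -0.48 and the others between -0.14 and 0.36, and replicate 5 was the lowest of its group for 15 of the 17 enzymes, against 2 of the 13 other members. These counts were not taken over all genes, so whether the same arrays were low for other liver genes is not shown. In KO TCDD, replicate 2 stood at -0.17, replicate 1 at 0.26 and replicate 3 at 0.23, and in KO corn oil the 3 arrays stood at 0.21, 0.00 and 0.14. The low arrays of WT corn oil were scanned on different days, and replicates 2, 3 and 4 on the same day. The median SD within groups was 0.357 for the synthesis enzymes and 0.261 for the other members, against 0.162 for the 5467 genes at least as bright as the dimmest synthesis enzyme and 0.0951 for all genes. The standard error of the WT difference had a median of 0.17 over the 30 members and of 0.06 over all genes.

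**Figure D3:**
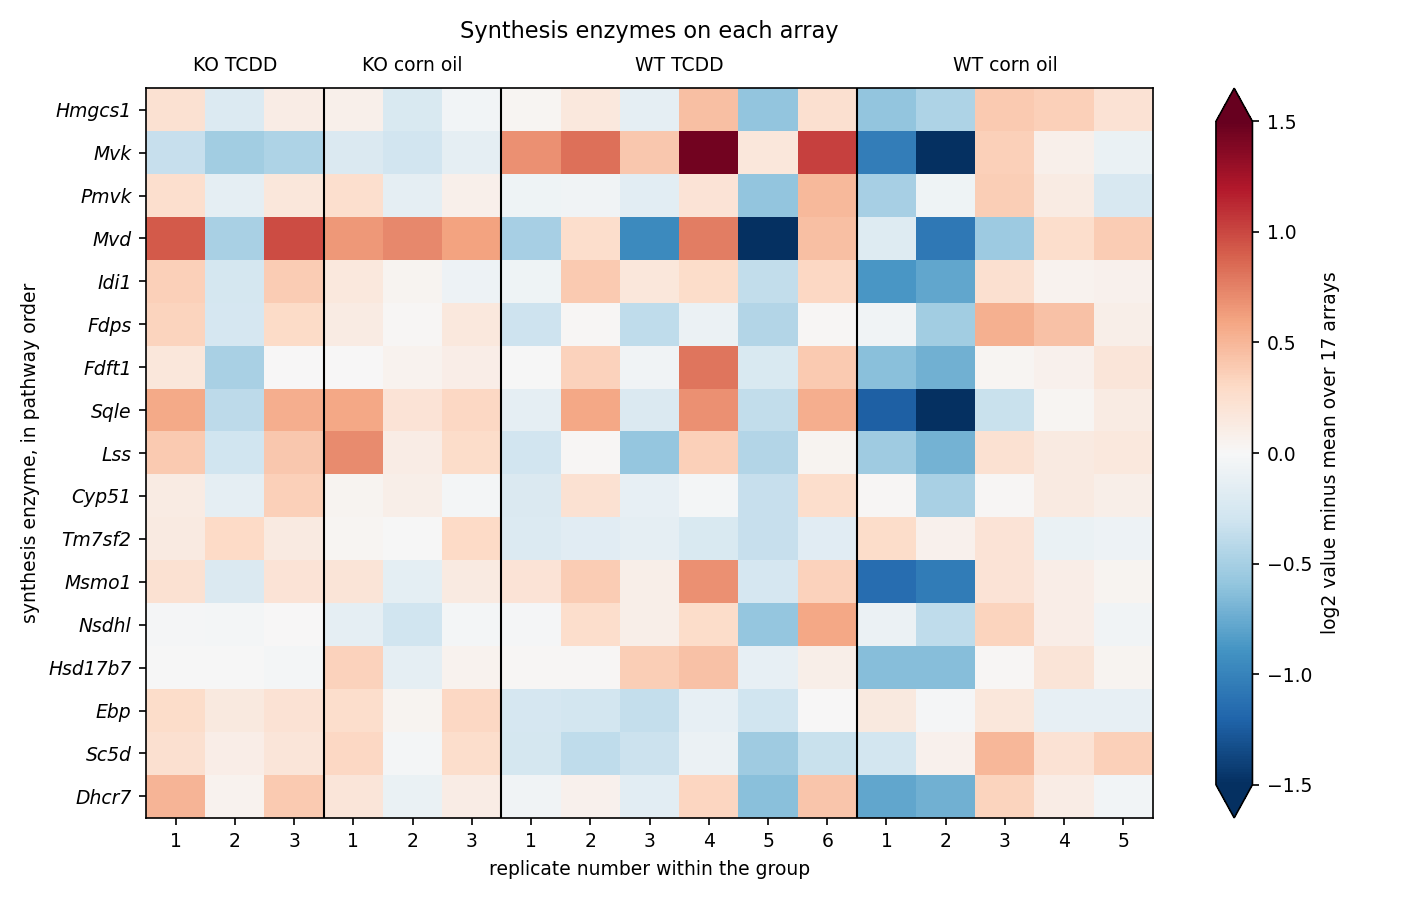
Deviation of each of 17 synthesis enzymes (rows, in pathway order) on each of 17 arrays (columns, grouped) from that enzyme's mean over all arrays, on the log2 scale. WT corn oil replicates 1 and 2 and WT TCDD replicate 5 are low for most enzymes, with mean deviations of -0.48, -0.64 and -0.48.

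Among uptake and transport genes, Scarb1 was the one that passed the test. It had 11.23, 11.21 and 11.17 in KO TCDD and 11.32, 11.39 and 11.07 in KO corn oil. In WT TCDD it ran from 10.69 through 10.89 to 11.13, against 11.53, 11.39, 11.32, 11.11 and 11.22 in WT corn oil. The WT groups touched only where the highest WT TCDD array, replicate 1, reached the lowest WT corn oil array, replicate 4. The difference was -0.42 ± 0.09 (adjusted p = 0.0105 by limma), with -0.45 (adjusted p = 0.00302) and -0.40 (adjusted p = 0.0226) on the other 2 probe sets, and it was -0.38 (adjusted p = 0.0342) without both arrays that stood apart. In KO it was -0.06 ± 0.12. Npc1, which releases cholesterol from lysosomes, ran from 9.53 to 10.42 in WT TCDD and from 9.43 to 9.79 in WT corn oil, a difference of 0.48 ± 0.17 (adjusted p = 0.211). Stard4, a sterol carrier of the cytosol, differed by -0.36 ± 0.15 (adjusted p = 0.341), and Mylip, the ligase that marks lipoprotein receptors for breakdown, by -0.21 ± 0.18.

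The LXR and efflux genes all had negative differences in WT, with a median of -0.28 over 4 genes, and none passed the test. Abca1 had 11.36, 11.45 and 11.61 in KO TCDD and 11.61, 11.59 and 11.59 in KO corn oil. It ran from 11.19 through 11.34 to 11.48 in WT TCDD, against 11.42, 11.53, 11.49, 11.79 and 11.72 in WT corn oil. WT TCDD replicate 2 alone reached into the range of WT corn oil, and the difference was -0.25 ± 0.07 (adjusted p = 0.0623). Abca1 passed with array weights, with a filter on level, and without WT corn oil replicate 1 or WT TCDD replicate 2. Abcg8 differed by -0.49 ± 0.26 (adjusted p = 0.568), its partner Abcg5 by -0.31 ± 0.21 (adjusted p = 0.811), and Nr1h3, which encodes the LXR receptor of liver and macrophages, by -0.18 ± 0.07 (adjusted p = 0.233).

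Lcat had 12.84, 12.85 and 12.75 in KO TCDD and 12.92, 12.97 and 12.84 in KO corn oil. In WT TCDD it ran from 12.93 through 13.05 to 13.12, against 12.87, 12.74, 12.64, 12.63 and 12.66 in WT corn oil. All WT TCDD arrays lay above all WT corn oil arrays, by a narrow margin over WT corn oil replicate 1. The difference was 0.33 ± 0.05 (adjusted p = 0.00071 by limma), and in KO it was -0.10 ± 0.06 (adjusted p = 0.875). Within scan day 2, the larger one, the WT difference was 0.40 (adjusted p = 0.0107), and within scan day 1, with 2 arrays against 1, it was 0.10 (adjusted p = 0.425).

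Taking the 30 members together in WT, 14 had an unadjusted p under 0.05, against 16.8% of all genes, and 5 of these had positive and 9 negative differences. The median difference was -0.15, against 0.01 over all genes. It rested on single arrays: it was -0.01 without WT TCDD replicate 5, -0.05, -0.06 and -0.09 without WT corn oil replicates 5, 4 and 3, and -0.09 without WT TCDD replicate 3. Within scan day 1 the median was 0.09 and Mvk was the 1 member that passed, and within scan day 2 it was -0.16 and Lcat was the 1 that passed. Insig2 stood at -0.75 and -0.85 within those days, Scarb1 at -0.58 and -0.41, and Sc5d at -0.05 and -0.58, none with an adjusted p under 0.05. Among the cell type markers, 3 of 7 hepatocyte genes fell in WT livers given TCDD, against 6.32% of all genes. These were Apoa1 by 0.14, Ahsg by 0.10 and Cps1 by 0.27 on the log2 scale. The hepatocyte list averaged 14.58 to 14.78 in WT TCDD and 14.77 to 14.94 in WT corn oil. Of 6 sinusoidal endothelial markers 2 fell, Clec4g by 0.55 and Stab2 by 0.35. That list averaged 6.88 to 7.19 in WT TCDD and 7.28 to 7.42 in WT corn oil. Both averages take in genes that did not pass, with differences of -0.55 to -0.01 (hepatocyte) and -0.74 to 0.18 (endothelial). None of the measured markers of macrophages, stellate cells, cholangiocytes, lymphocytes and neutrophils passed the test. Their part in the differences of the members was not tested.

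In KO livers no member passed the test, against 0.011% of all genes, and none had an unadjusted p under 0.05, against 3.28% of all genes. The 30 differences between KO TCDD and KO corn oil ran from -0.25 to 0.25, with 15 positive and 15 negative, and their SE had a median of 0.23. Insig2, Abca1 and Lcat had the 3 largest t values, with differences of 0.22 ± 0.17, -0.12 ± 0.09 and -0.10 ± 0.06. Without the library labelled KO TCDD replicate 1, again no member passed. KO corn oil replicates 1 and 2 were scanned on day 1 and replicate 3 on day 2, whereas KO TCDD arrays were scanned on days 2 and 3. The TCDD effect in KO, and so the difference of effects, was therefore partly mixed with scan day. The even split did not hold with scan day as a block. In that fit 10 KO differences were positive and 20 negative, with a median of -0.06, and no member passed.

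The TCDD effect differed between the genotypes for Insig2 and Lcat, by a test of the difference itself. For Insig2, at 0.22 in KO and -0.81 in WT, the KO effect minus the WT effect was 1.03 ± 0.22 (adjusted p = 0.0346 by limma), with 1.26 (adjusted p = 0.0122) and 1.23 (adjusted p = 0.024) on its other probe sets. For Lcat, at -0.10 in KO and 0.33 in WT, it was -0.43 ± 0.08 (adjusted p = 0.0167). Both genes thus passed the test in WT and not in KO, and the WT fall of Insig2 and rise of Lcat had no counterpart of the same sign in the KO values. Over all genes 1.63% passed, against 2 of 30 members. For Sc5d the difference of effects was 0.48 (adjusted p = 0.519), for Scarb1 0.37 (adjusted p = 0.484) and for Tm7sf2 0.37 ± 0.13 (adjusted p = 0.325), so a genotype dependence was not shown for them. With scan day as a block neither passed (Insig2 1.09, adjusted p = 0.0764, and Lcat -0.37, adjusted p = 0.169). Without the library labelled KO TCDD replicate 1, the difference of effects for Insig2 was 0.94 (adjusted p = 0.0905), so its call was lost, and that for Lcat was -0.44 (adjusted p = 0.0309). Without that library and WT TCDD replicate 6 they were 1.03 (adjusted p = 0.025) and -0.46 (adjusted p = 0.0318). Leaving out KO corn oil replicate 1 or 2 ended both calls, and leaving out KO TCDD replicate 3 ended that of Lcat. The Insig2 call was lost in 12 of 17 omissions and held only without WT corn oil replicate 1 or 4, WT TCDD replicate 1 or 6, or KO TCDD replicate 3.

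With corn oil alone, no member passed the test between KO and WT, against 2.34% of all genes. Of the 30 differences 24 were positive and 6 negative, with a median of 0.16, against 0.01 over all genes, and 4 had an unadjusted p under 0.05, against 11.5% of all genes. The median was 0.09 without WT corn oil replicate 1 and ran up to 0.21 over the other omissions of 1 array. Of the synthesis enzymes 15 were positive and 2 negative, with a median of 0.27. Both this comparison and that of TCDD in WT use the 5 WT corn oil arrays, of which replicates 1 and 2 were low for most synthesis enzymes. Sqle, at 10.25 to 10.63 in KO corn oil and 8.56 to 10.17 in WT corn oil, differed by 0.94 ± 0.39 (adjusted p = 0.459). Within scan day 1, with KO corn oil replicates 1 and 2 against WT corn oil replicate 1, the median over the members was 0.47, and within scan day 2 it was 0.09.

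Abcg5, which with Abcg8 forms the exporter of sterols into bile, had the largest t value among genotype differences. It had 10.24, 10.80 and 10.41 in KO TCDD, 11.16, 10.31 and 10.48 in KO corn oil, 8.94 to 9.70 with a median of 9.55 in WT TCDD, and 9.52, 10.15, 9.25, 9.57 and 10.02 in WT corn oil. The 6 KO arrays lay at 10.24 or above and the 11 WT arrays at 10.15 or below, a narrow gap. How many of all genes split this way over both treatments was not counted. The difference with corn oil was 0.95 ± 0.26 (adjusted p = 0.105 by limma), and its partner Abcg8 differed by 0.45 ± 0.31. Insig2 was at 11.05 to 11.29 in KO corn oil and at 11.52 to 11.85 in WT corn oil, without overlap, a difference of -0.48 ± 0.16 (adjusted p = 0.22). Lcat differed by 0.20 ± 0.06 (adjusted p = 0.126) and passed when WT corn oil replicate 1 was left out. Arrays did not overlap for 4 members (Insig2, Mvd, Sqle and Abcg5), against 8.28% of all genes. Of 7 hepatocyte markers 2 were higher in KO corn oil, Ahsg by 0.15 and Hpd by 0.25, against 2.34% of all genes. Of 6 sinusoidal endothelial markers Lyve1 alone passed, higher by 1.64, whereas the median of that list was -0.06. The part of the cell type markers in these values was not tested.

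**Figure D4:**
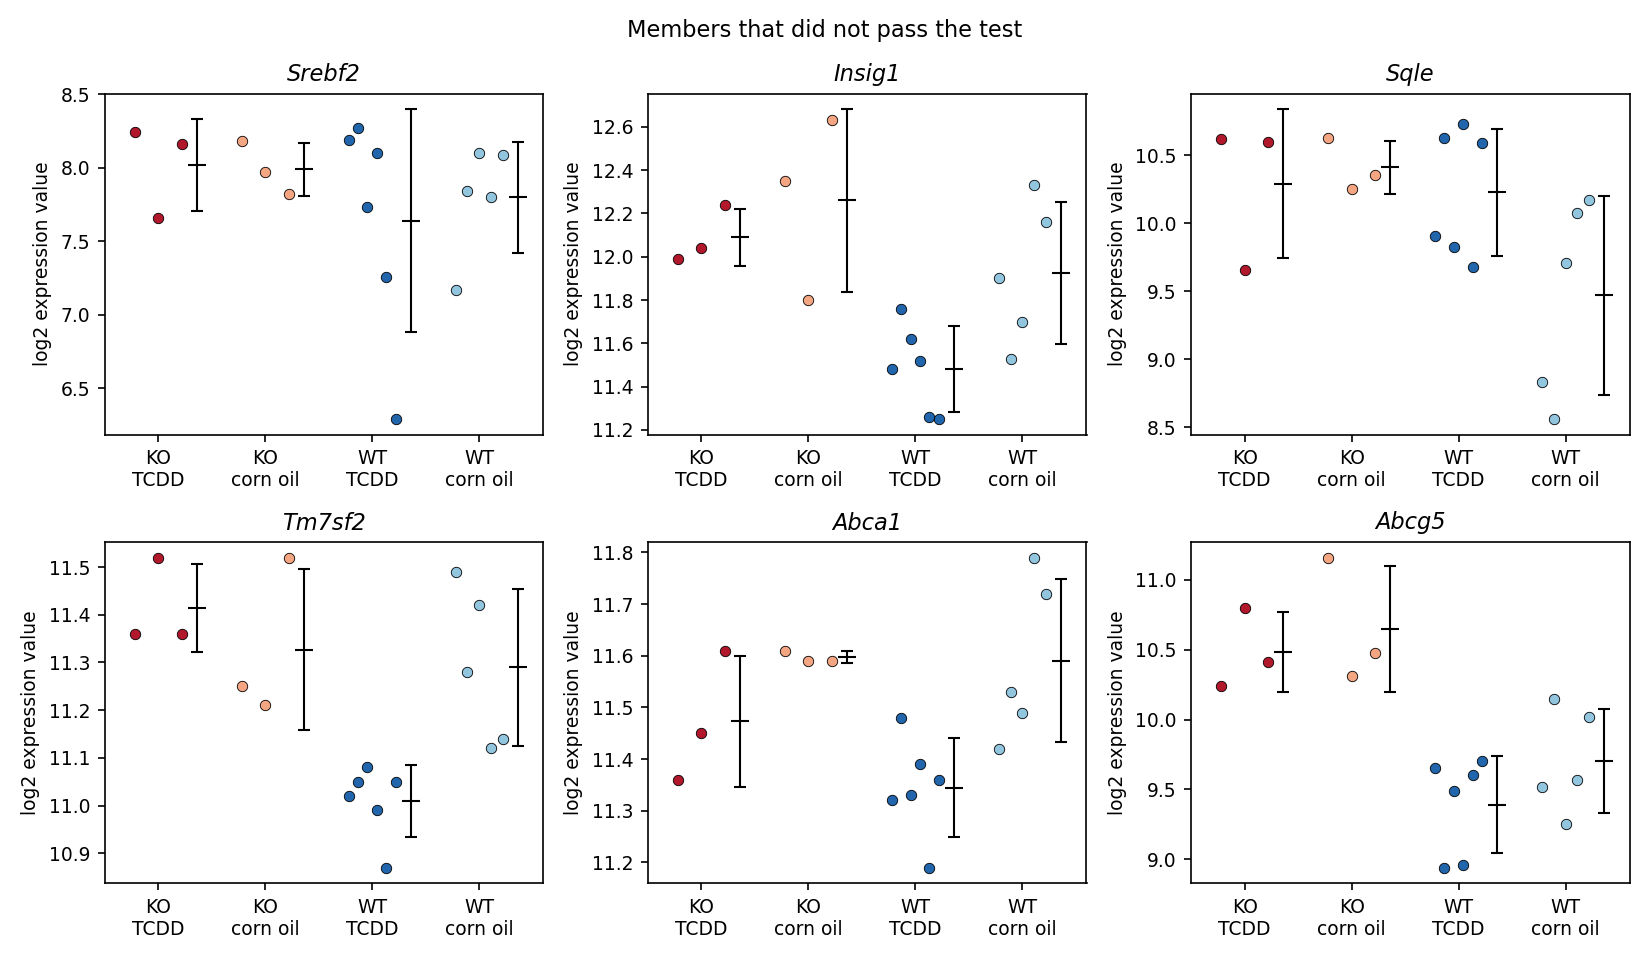
Log2 expression values (vertical axes, each with its own range) of 6 further members by group. None of these passed the test in any comparison of the analysis reported. Each point is 1 array, and the bar beside each group is its mean ± SD. For Abcg5 the KO arrays lie at 10.24 or above and the WT arrays at 10.15 or below, and for Sqle WT corn oil replicates 1 and 2 lie at 8.83 and 8.56.

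Genes beyond the 33 were read from a pair of further lists. Of 11 measured genes of other sterol synthesis and SREBP regulation (14 listed), none passed in any comparison. For TCDD in WT 2 had an unadjusted p under 0.05, against 16.8% of all genes, and for genotype 2, against 11.5% of all genes. Of 16 measured genes of other sterol uptake, transport and storage (19 listed), Gramd1c, a member of the family that carries cholesterol from the plasma membrane to the endoplasmic reticulum, rose by 1.57 ± 0.18 with TCDD in WT (adjusted p = 0.000105 by limma). Its means were 8.39 in KO TCDD, 8.30 in KO corn oil, 10.15 in WT TCDD and 8.58 in WT corn oil, and its TCDD effect differed between genotypes by -1.48 ± 0.31 (adjusted p = 0.0315). Npc2, which hands cholesterol to NPC1 in the lysosome, was higher by 0.47 ± 0.06 in KO corn oil than in WT corn oil (adjusted p = 0.000747 by limma), with means of 10.93 and 10.46. Of these 16 genes, 1 passed for TCDD in WT, 1 for the difference of effects and 1 for genotype. The shares over all genes were 6.32%, 1.63% and 2.34%.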

How the data were processed

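Total RNA of mouse liver was hybridised to 17 Affymetrix mouse genome arrays, 1 per sample, grouped by the sample titles. Expression values were deposited on a log2 scale for each probe set and run from 0.333 to 15.9. Tools listed in the submitters' processing notes are affy 1.5.8, RMA and GCRMA; the sources used here do not say which of the methods was applied. Normalization across arrays hides a shift common to most genes. Of 45101 probe sets, 64 controls were left out, and 34945 name 1 gene, 932 several and 9160 none; 34741 matched a GRCm38.p6 gene table.

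A model with 4 group means was fitted to all probe sets by lmFit and eBayes of limma 3.58.1 (R 4.3.3; 13 residual degrees of freedom), with Benjamini-Hochberg adjustment over the 45037 probe sets of each contrast, two-sided. A gene was called at an adjusted p under 0.05, and rises and falls refer to called genes. Levels are log2 values, differences carry the SE of the model, and the number of arrays limits the precision. The code was tested on simulated data. Scan days come from the deposited array files.

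Full values are given for members called in any contrast, for Srebf2, Insig1, Insig2, Sqle and Abca1, and for the 3 largest moderated t in each contrast; of the further lists and the cell type markers, called genes are named. Promoters are shown for at most 4 called members. The members and lists were chosen with earlier results of these data known. Alternatives changed the normalization, centring, model, filter, samples, scan day, replicate block and choice of probe set.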

Additional observations from a re-analysis of the deposited data

Results flagged for a closer look

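The response to TCDD differed between genotypes, by the test of the difference itself, for 2 members. For Insig2 the TCDD effect was 0.22 ± 0.17 in KO and -0.81 ± 0.13 in WT, a difference of 1.03 on the log2 scale, and for Lcat it was -0.10 ± 0.06 in KO and 0.33 ± 0.05 in WT, a difference of -0.43. Insig2 had an adjusted p under 0.05 (limma) on all 3 of its probe sets, which read the same samples and are not independent. Its call was lost in 12 of 17 omissions of 1 array, among them that of KO TCDD replicate 1. The Lcat call was lost in 3 of 17. With scan day as a block neither call held. No value among the 20 sets of arrays tested (the 10 members given in full, in WT TCDD and WT corn oil) stood far enough from the rest of its group to count as an outlier by Dixon's test.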

How the results depend on the processing

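No called difference changed sign under the alternatives run. For TCDD in WT, 4 members were called in the analysis reported, and 7 with array weights, 7 with a filter on level, 1 within scan day 1 and 1 within scan day 2, where few arrays were left. Leaving out each array in turn gave 3 to 6 calls and a median from -0.17 to -0.01; the median was 0.09 within scan day 1. Insig2, Scarb1 and Lcat kept their calls in all 17 omissions; Sc5d lost its call in 7 of them and when the fit held the WT groups alone (-0.49, adjusted p = 0.0817 by limma). For TCDD in KO the count was 0 throughout, with a median from -0.10 to 0.04 over the omissions. For genotype the count was 0, but 2 with array weights (Ebp higher, Insig2 lower), 1 with the filter (Abcg5 higher) and 0 to 1 over the omissions (Lcat, without WT corn oil replicate 1); the median ran from 0.09 to 0.21 over the omissions and was 0.47 within scan day 1. For the difference of effects, 2 members became 0 with scan day as a block, 0 within scan day 2 and 0 to 2 over the omissions, with a median from 0.01 to 0.16; Insig2 lost its call in 12 of 17 omissions (0.94 to 1.20) and Lcat in 3 (-0.47 to -0.40). The cause of these changes was not tested.

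Same-numbered arrays had correlations of their deviations from -0.269 to 0.0972, which gave no sign of pairing by replicate number. Pairs of arrays with different numbers were not examined, so this check cannot tell whether same-numbered samples were handled together. With the replicate block, 3 members were called for TCDD in WT (Sc5d at -0.49, adjusted p = 0.106) and 1 for the difference of effects (Insig2 at 1.11, adjusted p = 0.0489 by limma).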
